A study of Mus musculus with 14 samples.

Results

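The NR4A orphan nuclear receptors are a family of 3 genes, Nr4a1, Nr4a2 and Nr4a3, and their transcripts were followed across 14 arrays of mouse satellite cells, the stem cells of skeletal muscle. The members were chosen by name, as the non-control probes that the array design assigns to the 3 genes, after earlier results of these data had shown Nr4a2 to be low in Geriatric cells. They are 3 of the 32863 genes that passed the detection filter, and all 3 passed it. Cells had been sorted on integrin a7 and CD34, after cells carrying CD31, CD45, CD11b or Sca1 were gated out, and their RNA was amplified before labelling with Cy3. Of the 5 groups, 3 were C57BL/6 mice labelled male: Young at 2 to 3 months, Old at 22 to 24 months and Geriatric at 29 and 30 months. The others were SAMP8, a strain that ages early, and its resistant relative SAMR1, both labelled male and 12 months old. Each group had 3 arrays except Geriatric, which had 2. All cells came from muscle in homeostasis, and the labels name no treatment or transgene. Replicate number 2 of the Geriatric group was not analysed here, and the labels call the samples biological replicates without naming animals or pools. Each older age was set against Young, Geriatric also against Old, and SAMP8 against SAMR1.

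NR4A proteins are nuclear receptors that work without a known classical ligand, because bulky side chains fill the pocket in which a ligand would sit, so their activity follows largely from how much of them a cell makes. Their genes are immediate early genes: cAMP and calcium signals switch them on within a short time through CREB, a factor that binds cAMP response elements, and in skeletal muscle beta-adrenergic stimulation and exercise do so. The proteins bind the NBRE sequence as monomers, and Nr4a1 and Nr4a2, but not Nr4a3, also pair with the retinoid X receptors. In mouse muscle Nr4a1 and Nr4a3 are known for promoting glucose and oxidative metabolism and fibre growth, and Nr4a2 is best known for the development of midbrain dopamine neurons.

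The 3 genes share a feature of sequence that the array did not measure. The 250 bases before the annotated start of each gene hold 4 copies of the core of the cAMP response element, the CRE core (TGACG, or CGTCA when read on the other strand, shown in capitals). They are printed because these cores are what the members have in common ahead of the values. The sequences are RefSeq's for build GRCm38.p6, on the strand of each gene: Nr4a1 at chr15:101266596-101266845 (plus), Nr4a2 at chr2:57124004-57124253 (minus) and Nr4a3 at chr4:48045055-48045304 (plus).
Nr4a1: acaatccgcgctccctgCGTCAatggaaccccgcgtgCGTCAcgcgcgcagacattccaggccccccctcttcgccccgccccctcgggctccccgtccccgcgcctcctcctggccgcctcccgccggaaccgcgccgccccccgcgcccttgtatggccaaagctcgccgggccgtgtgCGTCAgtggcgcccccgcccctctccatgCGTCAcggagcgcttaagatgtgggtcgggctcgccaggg
Nr4a2: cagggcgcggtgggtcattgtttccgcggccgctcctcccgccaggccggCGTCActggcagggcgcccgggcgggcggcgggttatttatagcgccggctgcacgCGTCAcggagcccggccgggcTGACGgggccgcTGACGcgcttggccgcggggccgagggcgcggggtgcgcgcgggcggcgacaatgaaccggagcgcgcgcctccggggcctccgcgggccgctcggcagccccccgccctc
Nr4a3: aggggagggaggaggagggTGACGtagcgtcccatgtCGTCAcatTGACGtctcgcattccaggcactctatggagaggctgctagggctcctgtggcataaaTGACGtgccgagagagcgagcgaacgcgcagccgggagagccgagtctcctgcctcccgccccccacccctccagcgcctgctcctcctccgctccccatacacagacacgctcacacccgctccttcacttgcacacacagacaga
Of 32851 promoter windows of the same length in the table, 17.8% held at least 1 core and 0.137%, or 45 windows, held at least 4. The full palindrome TGACGTCA, in which 2 cores overlap and which 1.55% of the windows held, was in none of the 3 windows. The NBRE, AAAGGTCA on either strand, was also in none of them and in 1.34% of all windows. Among the gene lists used further on, 11 of the 13 CREB-responsive genes with a window had at least 1 core (84.6%), as did 15 of 26 other immediate early genes (57.7%), 11 of 26 regulators of cAMP, calcium and CREB signalling (42.3%), 4 of 10 RXR partners and cofactors (40.0%), 9 of 37 other nuclear receptors (24.3%) and 2 of 13 muscle metabolic genes (15.4%). The most that any gene of those lists had was 3. A listed gene was scored by its window with the most cores, and 4163 of the 27025 symbols had several windows. These shares are therefore per gene and not directly comparable with the 17.8%, which is per window. A match of letters is a description and does not show that a factor binds there.

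**Figure D1:**
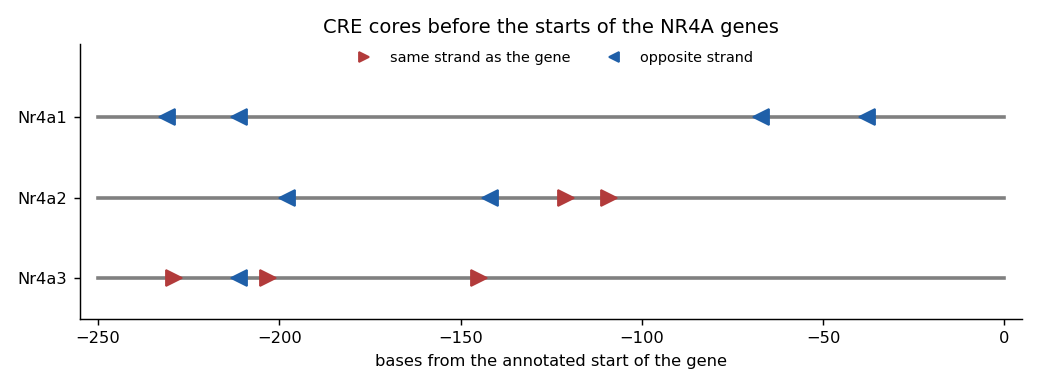
CRE cores (TGACG on either strand) in the 250 bases before the annotated start of each NR4A gene, with the distance from the start in bases on the horizontal axis and the direction of each arrowhead and its colour giving the strand. Each gene has 4, which lie between −233 and −36 bases in Nr4a1, between −200 and −107 in Nr4a2 and between −231 and −143 in Nr4a3.

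The family is reported by 4 probes, each of which was well above background on all 14 arrays, with no saturated spot. Levels are the log2 of the processed signal minus the array's 75th percentile, so that a level of 0 is that percentile and a difference of 1 is a doubling, and levels are compared between arrays and not between probes. In mm9, the build of the array design, the Nr4a1 probe lies at chr15:101105071-101105130 (plus strand), and the Nr4a2 probe that stands for the gene lies at chr2:56960699-56960758 (minus strand). A second, dimmer Nr4a2 probe lies 1062 bases further along the transcript, at chr2:56959637-56959696. The Nr4a3 probe is printed 10 times on each array, and its 60 bases span 3187 bases of the genome (chr4:48080690-48083876, plus strand), so that it crosses an intron and reads spliced RNA. The 2 probes that stand for their gene and have no stop codon in at least 1 forward reading frame read as follows.
Nr4a2 probe: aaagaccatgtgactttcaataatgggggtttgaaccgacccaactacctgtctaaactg
Nr4a3 probe: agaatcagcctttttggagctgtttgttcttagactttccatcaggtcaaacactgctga

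The share of probes well above background was 77.1% to 88.8%, the median signal was 6.23 to 8.34 times the local background, and outlier spots numbered 94 to 255 except on Geriatric 1, which had 969. Brightness moved with the groups: the median signal over background was 8.03 and 8.06 on Geriatric arrays, against 6.23 to 6.86 on Young and Old arrays, and 6.47 to 7.25 on SAMP8, against 7.92 to 8.34 on SAMR1 arrays. The 75th percentile that was subtracted stood at 1000 and 1006 processed units on Geriatric arrays, against 694.7 to 795.2 on Young and Old arrays, and the part of brightness in the differences below was not tested. All 9 satellite cell markers were well above background on all 14 arrays, but so were 7 or 8 of the 8 leukocyte markers and 5 or 6 of the 6 endothelial markers, of types that the sort gates out. Sex-linked transcripts went against the labels: Xist was well above background on all Young and Old arrays, where Ddx3y, Uty and Kdm5d were not, and those 3 Y-linked genes were well above background on all Geriatric, SAMP8 and SAMR1 arrays. Xist was also well above background on all 3 SAMP8 arrays and 1 SAMR1 array, at low level: its mean was 5.69 in Young, 5.26 in Old and −7.23 in Geriatric cells, and −4.14 in SAMP8 and −6.76 in SAMR1 cells. Eif2s3y, also Y-linked, was well above background on all 14 arrays. The Geriatric samples thus differ in sex-linked transcripts from the Young and Old samples they are set against, and age and that difference cannot be told apart here. The array identifiers place the samples on 2 slides, with Young 1, Young 3, Old 2, SAMP8 2, SAMR1 1 and SAMR1 3 on the first and the other 8 on the second, so that Young 2 and Old 2 each lie alone among their group and both Geriatric arrays share the second slide.

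Nr4a2, the member with the widest separation between groups, was lowest in Geriatric cells. Its level was 2.22, 2.55 and 2.19 on the Young arrays, 2.24, 1.55 and 1.90 on the Old arrays and 0.62 and 0.32 on the Geriatric arrays. Both Geriatric values lay below all 12 other arrays, since the next lowest was SAMP8 3. The level was 1.32, 1.44 and 1.17 on the SAMP8 arrays and 1.37, 1.31 and 1.47 on the SAMR1 arrays. All 6 of those values lay between the Geriatric and the Old arrays, and the 2 strains overlapped.

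Set against Young cells, Geriatric cells had 27.8% of the Nr4a2 signal, a log2 difference of −1.85 ± 0.23 (SE, n = 2 against 3, 95% interval −2.36 to −1.34). Set against Old cells, they had 37.2%, a difference of −1.42 ± 0.23 (n = 2 against 3, −1.93 to −0.92). Old cells had 74.6% of the Young signal, with overlapping arrays and a difference of −0.42 ± 0.21 (n = 3 each) whose interval ran from −0.88 to 0.03. The difference between SAMP8 and SAMR1 cells was −0.08 ± 0.21 (n = 3 each), with an interval of −0.53 to 0.38. These are bulk samples, in which fewer cells of a type and less RNA per cell cannot be told apart.

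Mean Nr4a2 levels were 2.32 ± 0.20 in Young (SD, n = 3), 1.90 ± 0.35 in Old (n = 3) and 0.47 ± 0.21 in Geriatric cells (n = 2), and 1.31 ± 0.14 in SAMP8 and 1.38 ± 0.08 in SAMR1 cells (n = 3 each). In descending order the groups were Young, Old, SAMR1, SAMP8 and Geriatric. Neighbours in that order overlapped between Young and Old and between SAMR1 and SAMP8, and did not overlap between Old and SAMR1 or between SAMP8 and Geriatric. The gap from SAMP8 to Geriatric was 0.84, which is 4.02 times the larger of their SDs. Some other properties of the samples also differ between these groups. The summed level of 5 sex-linked transcripts was 5.60 to 5.86 on Young, 5.10 to 5.56 on Old and 1.21 to 1.53 on Geriatric arrays, and 1.20 to 1.78 on SAMP8 and 1.25 to 1.79 on SAMR1 arrays. The summed level of the 8 leukocyte markers was 8.07 to 8.55 on Young, 7.94 to 8.63 on Old and 7.47 to 7.53 on Geriatric arrays, and 7.72 to 8.73 on SAMP8 and 7.54 to 8.11 on SAMR1 arrays. These sums add linear levels, so the brightest marker of a list weighs most. Itgam, the brightest of the 8, averaged 8.30 in Young, 8.18 in Old and 7.45 in Geriatric cells. Ptprc averaged −1.90, −1.77 and −1.80 in the same order. The summed level of the 6 muscle fibre markers was 2.12 to 2.63 on Young, 2.10 to 3.26 on Old and 1.78 to 1.86 on Geriatric arrays, and 1.57 to 1.81 on SAMP8 and 1.35 to 1.91 on SAMR1 arrays. Mylpf, a fast myosin light chain, was well above background on 1 of 3 Young, 3 of 3 Old, 1 of 3 SAMR1 and no Geriatric or SAMP8 array. Myh1, another of the 6, was well above background on 1 of 3 Young, 2 of 3 Old and 2 of 2 Geriatric arrays. Ckm, Acta1, Myh4 and Tnnt3 were well above background on all Young, Old and Geriatric arrays. Geriatric arrays were thus below all Young and Old arrays in these 3 sums, but not in those of the other marker lists. The endothelial sum was 3.42 to 4.04 on Young, 3.33 to 3.75 on Old and 4.04 to 4.12 on Geriatric arrays. It was 3.93 to 5.35 on SAMP8 and 4.67 to 5.67 on SAMR1 arrays. The sum of 5 mesenchymal cell markers was 3.65 to 3.88 on Young, 4.34 to 4.75 on Old and 3.34 to 4.66 on Geriatric arrays. On SAMP8 arrays it was 5.58 to 6.16 and on SAMR1 arrays 4.74 to 5.45. The sex-linked sum joins transcripts that moved in opposite directions. Xist averaged 5.69 in Young, 5.26 in Old and −7.23 in Geriatric cells, and Ddx3y −7.62, −7.54 and 0.18. On SAMP8 and SAMR1 arrays, where Nr4a2 was higher than on Geriatric arrays, the leukocyte sum lay above the Geriatric range and the fibre sum reached below it. The part of any of these in the Nr4a2 difference was not tested.

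The second Nr4a2 probe had the same order of ages at a smaller size. It read −1.80, −1.18 and −1.88 on Young arrays, −1.61, −2.32 and −1.38 on Old arrays and −2.30 and −2.71 on Geriatric arrays. Geriatric and Young arrays did not overlap, whereas Geriatric 1 lay just above Old 2. It read −2.29, −1.30 and −1.96 on SAMP8 arrays and −2.07, −2.22 and −2.43 on SAMR1 arrays, so that Geriatric 1 lay within the range of SAMR1. The log2 difference was −0.88 ± 0.36 (SE) for Geriatric versus Young and −0.73 ± 0.36 for Geriatric versus Old cells (n = 2 against 3), smaller in size than what the brighter probe gave in each comparison. Over the 14 arrays the 2 probes correlated with r = 0.73, and with r = 0.68 after each array's group mean was taken off. This probe's mean signal per group was 178.3 to 256.6 processed units, and the limma fit of all kept probes passed none of its 4 comparisons.

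Nr4a1, whose product in mouse muscle supports glucose use and growth, had another order: its mean level was lowest in Old and highest in Geriatric cells. It read 3.87, 4.28 and 3.66 on Young arrays, 3.31, 2.59 and 3.60 on Old arrays and 4.06 and 4.09 on Geriatric arrays. The Old arrays lay below all Young and all Geriatric arrays (Old 3 and Young 3 nearly met), and the Geriatric arrays lay inside the Young range. It read 3.91, 3.45 and 3.96 on SAMP8 arrays and 3.65, 3.72 and 3.59 on SAMR1 arrays, with overlap between these strains.

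Old cells had 58.4% of the Young Nr4a1 signal, a log2 difference of −0.78 ± 0.27 (SE, n = 3 each, 95% interval −1.36 to −0.19). Geriatric cells had 1.88 times the Old signal, a difference of 0.91 ± 0.30 (n = 2 against 3, 0.26 to 1.57). Geriatric and Young cells differed by 0.14 ± 0.30 (−0.52 to 0.79), and SAMP8 and SAMR1 cells by 0.12 ± 0.27 (n = 3 each, −0.47 to 0.70). The low Old mean rests partly on Old 2, the lowest array: without it the Old versus Young difference was −0.49 and the Geriatric versus Old difference 0.63. Within the second slide, which holds 1 Young, 2 Old and 2 Geriatric arrays, these differences were −0.83 and 0.63, and Geriatric versus Young was −0.21 in place of 0.14. With slide as a block Old versus Young was −0.94 and passed limma's threshold, as it did in no other alternative, and Geriatric versus Young was −0.19. Mean levels were 3.94 ± 0.32 in Young (SD, n = 3), 3.16 ± 0.52 in Old (n = 3) and 4.08 ± 0.02 in Geriatric cells (n = 2), and 3.77 ± 0.28 in SAMP8 and 3.65 ± 0.06 in SAMR1 cells (n = 3 each). The descending order was Geriatric, Young, SAMP8, SAMR1 and Old, and every pair of neighbours overlapped.

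Nr4a3 varied more between arrays than between groups. It read −1.55, 0.17 and −0.99 on Young arrays, −0.55, −2.56 and −0.80 on Old arrays and −0.99 and −0.86 on Geriatric arrays. The highest of all 14 arrays was Young 2 and the lowest Old 2, and the Geriatric arrays lay inside both the Young and the Old range. It read −1.66, −1.90 and −0.72 on SAMP8 arrays and −1.84, −1.53 and −1.76 on SAMR1 arrays. The SAMR1 arrays lay close together and SAMP8 3 stood above them. The 10 spots of the probe differed within an array by an SD of 0.06 to 0.13. Over the arrays the levels had an SD of 0.7 and a range of 2.73, so the spread lies mostly between arrays and not in the reading of a spot.

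The Nr4a3 differences were accordingly within their errors: −0.52 ± 0.55 for Old versus Young (SE, n = 3 each, 95% interval −1.72 to 0.68), −0.14 ± 0.61 for Geriatric versus Young (n = 2 against 3, −1.48 to 1.21), 0.38 ± 0.61 for Geriatric versus Old (−0.96 to 1.72) and 0.28 ± 0.55 for SAMP8 versus SAMR1 (n = 3 each, −0.92 to 1.48). Each changed sign without 1 array: Old versus Young was 0.11 and Geriatric versus Old −0.25 without Old 2, Geriatric versus Young was 0.35 without Young 2, and SAMP8 versus SAMR1 was −0.07 without SAMP8 3. Mean levels were −0.79 ± 0.88 in Young (SD, n = 3), −1.31 ± 1.10 in Old (n = 3) and −0.93 ± 0.09 in Geriatric cells (n = 2), and −1.43 ± 0.62 in SAMP8 and −1.71 ± 0.16 in SAMR1 cells (n = 3 each). The descending order was Young, Geriatric, Old, SAMP8 and SAMR1, and all neighbours overlapped.

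**Figure D2:**
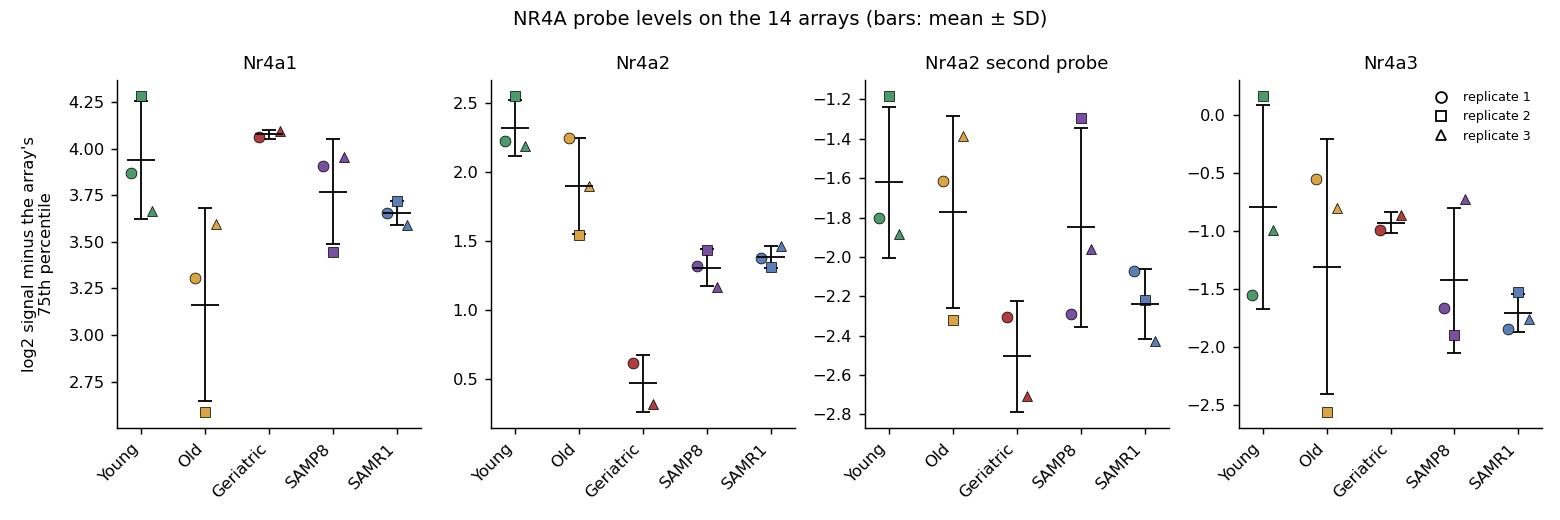
Level of each NR4A probe on every array (log2 signal minus the array's 75th percentile, vertical axis, with its own scale in each panel) by group, with the replicate number as the symbol and the mean ± SD as bars (n = 3, Geriatric n = 2). Geriatric arrays lie below all others for the brighter Nr4a2 probe, Old arrays lie lowest on average for Nr4a1, and for Nr4a3 the squares Young 2 and Old 2 set the range.

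**Figure D3:**
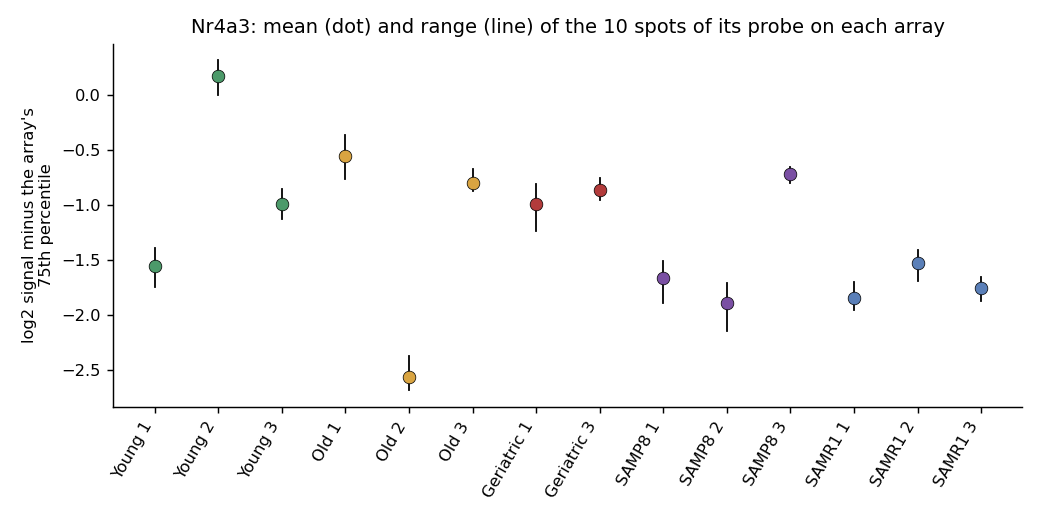
Mean (dot) and range (line) of the 10 spots of the Nr4a3 probe on each array, as log2 signal minus the array's 75th percentile. The spread of spots within an array is small beside the distance between Young 2 at 0.17 and Old 2 at −2.56.

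Across all genes, limma called 1.44% of the 32863 in Old against Young, 4.19% in Geriatric against Young, 20.0% in Geriatric against Old and 0.453% in SAMP8 against SAMR1 cells (Benjamini-Hochberg adjusted p under 0.05). Of the 3 members, 0, 1, 1 and 0 passed in these comparisons, in each case of a pass Nr4a2. Arrays of the 2 groups did not overlap for 21.5%, 44.2%, 54.9% and 13.1% of all genes in the same order, and for 1, 1, 2 and 0 of the members. Since the family was chosen with the low Geriatric level of Nr4a2 known, nothing is read from these counts.

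**Figure D4:**
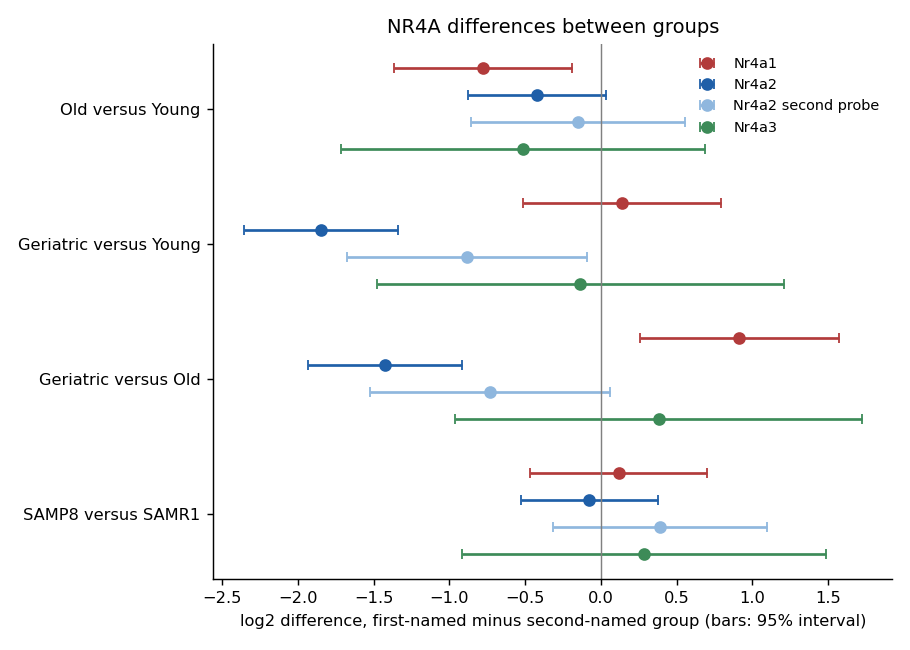
Log2 difference of each NR4A probe between groups, first-named minus second-named group, with its 95% interval from limma. Both Nr4a2 probes lie to the left of 0 in the Geriatric comparisons, at −1.85 and −0.88 against Young and at −1.42 and −0.73 against Old, while Nr4a1 lies at 0.91 in Geriatric versus Old cells.

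Young 2 was the highest Young array and Old 2 the lowest Old array for each of the 3 members. Among all 32350 genes measured on every array, Young 2 was highest of its group in 34.1% and Old 2 lowest of its group in 30.5%. Of the 36 other immediate early genes, 30 were highest on Young 2 (83.3%) and 14 lowest on Old 2 (38.9%). Among the 16 CREB-responsive genes that could be placed, the counts were 10 and 7. Lists not picked as induced genes also leaned to Young 2. It was highest for 10 of 13 RXR partners and cofactors (76.9%) and 21 of 33 cAMP, calcium and CREB regulators (63.6%). For other nuclear receptors the count was 18 of 38 (47.4%), and for muscle metabolic genes 5 of 14 (35.7%). After group means were taken off, Nr4a1 and Nr4a3 correlated over the 14 arrays with r = 0.84, Nr4a2 and Nr4a3 with r = 0.59 and Nr4a1 and Nr4a2 with r = 0.48. Without Young 2 and Old 2, which lie on different slides from the rest of their groups, these became 0.36, −0.42 and −0.68 over 12 arrays, so the common movement of the members within groups rests on these 2 arrays.

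The signals that induce NR4A genes were not measured, but transcripts of 33 regulators of cAMP, calcium and CREB signalling were followed. That list was chosen with earlier results of these data in view, as were the lists below. None of the 33 passed limma's test for Old against Young, Geriatric against Young or SAMP8 against SAMR1 cells, where 4, 7 and 2 had an unadjusted p under 0.05. In Geriatric versus Old 4 rose and 2 fell, or 18.2% against 20.0% of all genes. Creb1, which encodes CREB itself, differed by 0.27 ± 0.38 (SE) in that comparison (adjusted p = 0.635), and Crem, an early repressor of the same sites, by 0.16 ± 0.29 (adjusted p = 0.724). Ppp3cb, a catalytic subunit of calcineurin, rose by 0.77 ± 0.22 (limma adjusted p = 0.0299). Crebbp, the acetyltransferase that CREB recruits, fell by 0.79 ± 0.24 (adjusted p = 0.0373). Rps6ka5, a kinase that phosphorylates CREB (0.98 ± 0.31), and Atf1, a close relative of CREB (1.05 ± 0.34), passed at adjusted p of 0.0471 and 0.0477. These 4 calls are fragile: each was lost without Geriatric 1, Old 1 or Old 2, and also without Geriatric 3 for all but Rps6ka5, and Crebbp also failed under median scaling, quantile normalization and the authors' values. The list's median difference was 0.27, against −0.22 for all genes. The MEF2 factor Mef2d, which carries calcium signals to the Nr4a1 promoter in mouse T cells, differed by −0.49 ± 0.22 (adjusted p = 0.124), and Srf by 0.31 ± 0.21 (adjusted p = 0.312).

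Among 17 other CREB-responsive genes, Ppargc1a, the coactivator of mitochondrial biogenesis, and Rgs2 passed limma's test against Young cells in both older groups. Ppargc1a read −1.48, −1.58 and −0.83 on Young arrays, 0.92, 0.71 and 0.50 on Old arrays and 1.06 and 0.98 on Geriatric arrays, so neither older group overlapped Young. It rose by 2.00 ± 0.22 in Old (limma adjusted p = 0.00203) and by 2.32 ± 0.25 in Geriatric cells (adjusted p = 0.000589), and no single array carried either call, although the mean of its probes passed in neither. Rgs2, an early inhibitor of G protein signals, fell by 0.96 ± 0.19 in Old (adjusted p = 0.0333) and by 0.96 ± 0.21 in Geriatric cells (adjusted p = 0.0257). The Rgs2 calls were lost without any 1 of the Young arrays, without Old 1, Old 2 or SAMR1 2 for Old and without either Geriatric array for Geriatric cells. These comparisons share the Young arrays. In Geriatric versus Old, Sik1, the kinase that CREB induces and that feeds back on it, rose by 1.55 ± 0.35 (adjusted p = 0.0119), Gem, a small GTPase that restrains calcium channels, rose by 1.30 ± 0.32 (adjusted p = 0.0174), and Irs2, the insulin receptor substrate, fell by 1.08 ± 0.20 (adjusted p = 0.00456). These calls were lost without Geriatric 1 for Sik1, without Geriatric 3 for Irs2 and without either, or without Old 2, for Gem. The clock gene Per1 differed by 0.07 ± 0.28 (adjusted p = 0.877). The list's median was −0.01 in Geriatric versus Old, against −0.22 for all genes, and none of its genes passed in SAMP8 versus SAMR1, where 3 had an unadjusted p under 0.05 by limma.

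Other immediate early genes, induced by the same stimuli, took no single course with age. Against Young cells the list's median difference was −0.23 in Old (0.06 for all genes) and −0.43 in Geriatric cells (−0.18 for all genes). Of the 36 genes, 12 and 11 had an unadjusted p under 0.05 by limma in these comparisons. In Geriatric versus Old the median was 0.025, against −0.22 for all genes, and 14 genes had such a p. Fos, a component of the AP-1 factor, read 4.35, 4.56 and 4.25 on Young arrays, 3.72, 3.37 and 3.80 on Old arrays and 5.04 and 4.82 on Geriatric arrays. These 3 groups did not overlap, with Old lowest and Geriatric highest of them. The Fos mean was 4.89 in SAMP8 and 5.03 in SAMR1 cells, beside 4.93 in Geriatric cells. Fos rose by 1.30 ± 0.21 in Geriatric versus Old cells (limma adjusted p = 0.00228), whereas Old versus Young (−0.76 ± 0.19, adjusted p = 0.0779) and Geriatric versus Young (0.54 ± 0.21, adjusted p = 0.169) did not pass. Egr1, a zinc finger factor, read 6.29, 6.57 and 6.51 on Young arrays, 5.93, 5.59 and 5.86 on Old arrays and 6.67 and 6.35 on Geriatric arrays. It rose by 0.71 ± 0.20 in Geriatric versus Old cells (adjusted p = 0.0309), a call lost without Old 2, Geriatric 1 or Geriatric 3. Junb, another AP-1 component, read 7.04 to 7.27 on Young, 6.46 to 6.64 on Old and 6.61 to 6.71 on Geriatric arrays, and passed in neither comparison with Young (adjusted p = 0.164 and 0.224). Fosb differed by −0.26 ± 0.18 in Old and by −0.34 ± 0.21 in Geriatric cells relative to Young (adjusted p = 0.52 and 0.351).

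Dusp6, the phosphatase that limits ERK, was the 1 gene of the 36 that passed against Young cells. It fell by 1.18 ± 0.22 in Old (adjusted p = 0.0269) and by 1.32 ± 0.24 in Geriatric cells (adjusted p = 0.0125), calls lost without Young 1, Young 2, Old 1 or Old 2 for Old and without either Geriatric array for Geriatric cells. In Geriatric versus Old 2 rose and 3 fell (13.9%, against 20.0% of all genes). Fosl1, a Fos relative, fell by 3.48 ± 0.67 (adjusted p = 0.00564), Fosl2 by 0.73 ± 0.18 (adjusted p = 0.0195) and Trib1, a pseudokinase, by 1.40 ± 0.41 (adjusted p = 0.035). Each of the 3 calls was lost without Geriatric 3, that of Fosl2 also without Geriatric 1 or Old 1 and under every other scaling, and that of Trib1 also without any 1 Old array. The means of 16 of the 36 genes were below Young in Old cells and higher in Geriatric than in Old cells (44.4%), as for Nr4a1 and Nr4a3, against 29.2% of all genes. The means of 17 were below Young in both older groups (47.2%), as for Nr4a2 and Nr4a3, against 24.9% of all genes. These counts share 9 genes. Of the 36 genes 12 followed neither course, as did 18200 of all 32863 genes. Another count, of genes with their highest of the 3 age means in Old cells, was 9 of 36 (25%), against 44.4% of all genes. Fosl1, Fosl2 and Trib1 were among these 9.

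**Figure D5:**
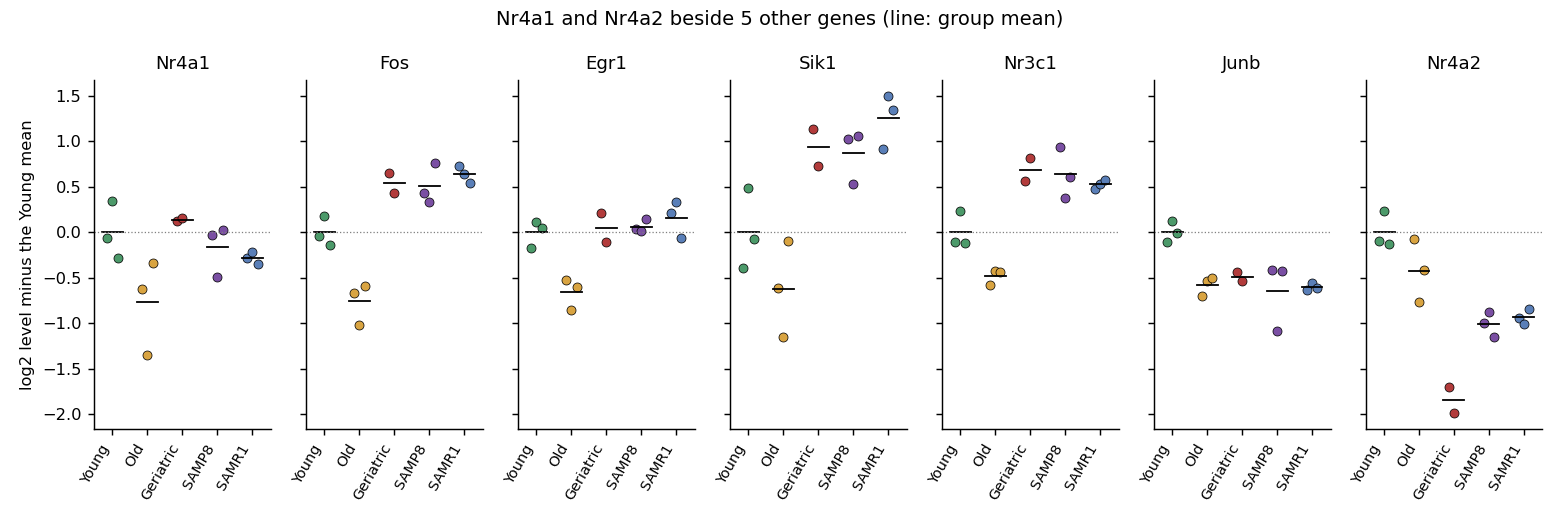
Level of Nr4a1, Fos, Egr1, Sik1, Nr3c1, Junb and Nr4a2 on every array minus the gene's Young mean (log2, vertical axis), by group, with the group mean as a line. Old arrays lie below and the Geriatric mean at or above the Young mean for the first 5 genes, while Nr4a2 is lower still in Geriatric cells, at a mean of −1.85. The SAMP8 and SAMR1 means lie above the Young mean for Fos, Egr1, Sik1 and Nr3c1 and below it for Nr4a1, Junb and Nr4a2.

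The partners of NR4A proteins gave few calls. Of 13 RXR partners and cofactors none passed for Old against Young, Geriatric against Young or SAMP8 against SAMR1 cells, where 4, 0 and 2 had an unadjusted p under 0.05 by limma, and 2 rose in Geriatric versus Old (15.4%, against 20.0% of all genes). Rxra, Rxrb and Rxrg, which encode the retinoid X receptors, differed there by 0.17 ± 0.28, −0.02 ± 0.37 and −0.60 ± 0.38 (limma adjusted p = 0.681, 0.978 and 0.273). Ncor1, a corepressor of nuclear receptors, rose by 0.67 ± 0.18 (adjusted p = 0.0284), and Bcl2, whose protein NR4A1 can bind at mitochondria in human cells, rose by 0.82 ± 0.23 (adjusted p = 0.0295). Both calls were lost without either Geriatric array, and also without Old 1 for Ncor1 and Old 2 for Bcl2.

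Of 38 other nuclear receptors that passed the filter, 7 rose and 5 fell in Geriatric versus Old cells (31.6%, against 20.0% of all genes), 2 rose in Geriatric versus Young, and none passed limma's test in Old versus Young or SAMP8 versus SAMR1, where 10 and 5 had an unadjusted p under 0.05. Nr3c1, the glucocorticoid receptor, whose signalling NR4A proteins oppose, read 0.63 to 0.98 on Young arrays, 0.17 to 0.31 on Old arrays and 1.30 and 1.55 on Geriatric arrays. It rose by 1.17 ± 0.21 in Geriatric versus Old cells (limma adjusted p = 0.00401), a call lost without Geriatric 3. The differences from Young were −0.48 ± 0.19 in Old and 0.68 ± 0.21 in Geriatric cells (adjusted p = 0.222 and 0.0999). Nr0b2, an orphan receptor that represses others, fell by 2.13 ± 0.35 in Geriatric versus Old cells (adjusted p = 0.00228). Nr2c1, an orphan receptor, rose by 1.24 ± 0.27 (adjusted p = 0.00989, lost without Geriatric 3). Esr1, the oestrogen receptor alpha, rose by 1.40 ± 0.33 (adjusted p = 0.0146), and Esrrg, an orphan receptor of oxidative muscle, rose by 2.99 ± 0.72 (adjusted p = 0.0153). The Esr1 and Esrrg calls were lost without either Geriatric array, and Esrrg was well above background on 1 of 3 Old arrays. Against Young cells Esrrg rose by 2.87 ± 0.72 (adjusted p = 0.0481), and 11 of the 14 fits with 1 array left out lost that call, among them those without Young 1, Young 3, Old 1, Geriatric 1 or Geriatric 3.

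Among 14 metabolic genes tied to NR4A proteins in muscle, Prkag3, the muscle subunit of AMP-activated protein kinase, was lower in Geriatric than in Young and Old cells. It read −0.92, −1.05 and −1.69 on Young arrays, −0.85, −0.85 and −1.16 on Old arrays and −2.61 and −2.67 on Geriatric arrays. The Geriatric arrays lay below all Young and Old arrays. Prkag3 fell by 1.69 ± 0.30 against Old (limma adjusted p = 0.00387) and by 1.42 ± 0.30 against Young cells (adjusted p = 0.0245, lost without Young 1, Young 2, Geriatric 1 or Geriatric 3). Lpin1, a phosphatase of fat metabolism, rose by 1.05 ± 0.30 in Geriatric versus Old cells (adjusted p = 0.03, lost without Old 1, Old 2 or Geriatric 3). None of the other 12 passed limma's test in any comparison, and the list held 1, 2, 4 and 2 genes with an unadjusted p under 0.05 in Old versus Young, in Geriatric against Young and against Old, and in SAMP8 versus SAMR1.

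Genes with the most similar course over the 14 arrays were sought among 18853 genes with a RefSeq symbol, by Pearson's r. The values share arrays, slides and group structure, so r describes these 14 arrays and carries no p. For Nr4a1 they were Trim35 (0.94), Gnl1 (0.94), Sucla2 (0.94), 1190002N15Rik (0.93, now Dipk2a) and Wfs1 (0.92). In each of them the Geriatric mean was the highest of the 5 groups and the Old mean the lowest, as for Nr4a1. For Sucla2, a subunit of succinyl-CoA synthetase, the Geriatric mean was 1.91 and the Old mean 1.08. Rsph6a (−0.94) and Muc15 (−0.94) ran the other way.

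For Nr4a2 the closest were Gm216 (0.94, now Catip), Tuba1c (0.92), Erv3 (0.90), Med13l (0.89) and Alpl (0.88). Alpl, the tissue-nonspecific alkaline phosphatase, averaged 0.23 in Young, −0.77 in Old and −3.44 in Geriatric cells, and −1.34 in SAMP8 and −1.66 in SAMR1 cells. Tuba1c, an alpha tubulin, averaged 3.81, 3.41 and 0.68 in Young, Old and Geriatric cells, and 2.39 in SAMP8 and 2.48 in SAMR1 cells. Rassf2 (−0.91), a Ras association domain protein, and Dab2 (−0.90), an endocytic adaptor, ran the other way and had their highest means in Geriatric cells. For Nr4a3 the r values were lower: Ppp4r2 reached 0.87, Tmem86b 0.86, Gtf3c2 0.84, Ncapd3 0.83 and Srr 0.83, and Irs3 (−0.90) and Ccdc60 (−0.85) ran the other way.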

How the data were processed

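RNA of sorted satellite cells was measured on 14 single-colour Agilent arrays. The members and the gene lists were chosen with earlier results of these data known. The deposited scanner files give a linear intensity per spot, the processed signal, background-subtracted by Agilent Feature Extraction per the file headers, which also give probe positions in mm9. The deposited table of the authors holds log2 values. How they were made was not given in the sources used here. They differed by at most 0.000117 from normexp background correction (offset 50) with quantile normalization over all spots.

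Control and outlier spots were left out, spots of a probe were averaged, and each array's 75th percentile was subtracted from its log2 signals. The filter kept 49918 of 55681 probes, those well above background on 2 or more arrays of any group, and the probe with the highest mean level stands for its gene. All genes were fitted together in R 4.3.3 with limma 3.58.1, with a mean for each group, all 14 arrays in the model, two-sided moderated tests from eBayes and p-values adjusted by Benjamini-Hochberg over 32863 genes. SE and intervals come from that fit, in which 515 values were missing as outliers, and it was tested on simulated data. Precision is limited by the number of arrays. Slides were read from the array identifiers, since no label names them. The replicate numbers of the groups did not pair samples: deviations of same-numbered arrays from their group means correlated above 0.1 in 5 of 26 pairs. Slides did leave a mark: arrays of different groups correlated above 0.1 in 14 of 38 pairs on the same slide. On different slides 2 of 40 pairs did, and the main fit has no term for slide. Named genes are the members, 14 genes fixed by name, up to 5 passing genes with the smallest adjusted p per list and comparison, and the 5 most and 2 least correlated genes per member; some list genes are not reported by name here. Alternative settings were the normexp background, quantile normalization, the authors' values, median scaling, no filter, the mean of probes, slide as a block, each slide alone, a replicate block and each array left out.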

Additional observations from a re-analysis of the deposited data

Results flagged for a closer look

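Nr4a1 stood out because all 3 Old arrays lay below and both Geriatric arrays above the Young mean. The difference of these effects, Geriatric minus Old, was 0.91 on the log2 scale. The opposite directions do not hold with the slides: Geriatric versus Young was 0.14 ± 0.30 (SE), −0.19 with slide as a block and −0.21 on the second slide alone, and Old versus Young was −0.78, −0.94 and −0.83 in the same order. For Sik1, Fos and Nr3c1 the Old and Geriatric arrays lay on the same sides of the Young mean as for Nr4a1, with Geriatric minus Old differences of 1.55, 1.30 and 1.17. The likeness did not extend to the other strains. Means of Sik1, Fos and Nr3c1 were 2.48, 4.89 and 1.38 in SAMP8 and 2.86, 5.03 and 1.27 in SAMR1 cells. These lay above the Young means of 1.61, 4.39 and 0.75. For Nr4a1 the SAMP8 and SAMR1 means, 3.77 and 3.65, lay below the Young mean of 3.94. Over the ages Mef2d had the opposite pattern, with all Old arrays above and both Geriatric arrays below the Young mean, and a Geriatric minus Old difference of −0.49. No test of these differences supports the pattern, because the genes were picked out by this pattern from lists chosen with results of these data known.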

How the results depend on the processing

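Differences below are log2, and 0.317, 0.215 and 0.729 are the replicate SDs of Nr4a1, Nr4a2 and Nr4a3. No member's difference that passed changed sign: Nr4a2 in Geriatric versus Young ran from −2.08 to −0.88 and in Geriatric versus Old from −1.60 to −0.73. The brighter probe, or the mean of both, passed in 22 of 23 and in 23 of 23 alternatives, failing against Young within slide 2, where 1 Young array is left, and the second probe passed in neither comparison. The mean of the Nr4a2 probes gave −1.37 and −1.08 in these comparisons and 0.16 in SAMP8 versus SAMR1, against −0.08. Its second probe, an alternative chosen after seeing the data, gave −0.88, −0.73, −0.15 for Old versus Young and 0.39 for SAMP8 versus SAMR1. Median scaling gave −1.14 in Geriatric versus Old. Within slide 1 Old versus Young was −1.18 for Nr4a1, −0.66 for Nr4a2 and −1.29 for Nr4a3. Within slide 2 Geriatric versus Young was −0.21 for Nr4a1, −2.08 for Nr4a2 and −1.10 for Nr4a3, and with slide as a block −0.19 for Nr4a1. All other settings moved a member by less than its replicate SD. Nr4a1 in Geriatric versus Old did not pass as reported, and passed in 8 of 23 alternatives, and Old versus Young passed in 1 of 24, with slide as a block (−0.94).

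The median of all genes in Geriatric versus Old was −0.22 here, 0.03 after quantile normalization, −0.01 in the authors' values and 0.06 with median scaling, and the share of called genes that were higher was 27.6%, 46.9%, 42.9% and 48.4%. Relative to that median Nr4a1 stayed between 1.03 and 1.19 and Nr4a2 between −1.47 and −1.13. In Geriatric versus Young the share was 37.7%, and 49.7% in the authors' values. In Old versus Young it was 83.3%, 67.7% after quantile normalization and 67% with median scaling.

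Genes called numbered 472, 1377, 6561 and 149 for Old against Young, Geriatric against Young, Geriatric against Old and SAMP8 against SAMR1 cells, and companion genes 3, 6, 30 and 0. Old versus Young gave 1036 genes and 7 companions with the normexp background, 773 genes from the authors' values, 729 and 9 with slide as a block, 237 and 1 with the replicate block, 1 companion with the mean of probes, and 0 and 0 within either slide. Geriatric versus Young gave 864 and 3 with slide as a block, 869 and 3 with the replicate block, and 2 and 0 within slide 2. Geriatric versus Old gave 1553 and 2 within slide 2 and 14 companions with the replicate block. SAMP8 versus SAMR1 gave 263 with the normexp background, 228 from the authors' values and 0 within either slide. The numbers do not pair the samples, and fits within a slide hold fewer arrays. With 1 array left out, genes ran from 85 (without Old 1) to 793 (without Old 3), from 414 (without Geriatric 3) to 1537, from 1989 (without Geriatric 3) to 7309 and from 56 (without SAMR1 2) to 250, and companions from 1 to 5, 1 to 7, 5 to 35 and 0 to 1. Left-out ranges in the same order were −0.99 to −0.49, 0.00 to 0.31, 0.63 to 1.13 and 0.02 to 0.28 for Nr4a1, −0.60 to −0.25, −1.995 to −1.70, −1.60 to −1.25 and −0.14 to −0.01 for Nr4a2, and −0.90 to 0.11, −0.52 to 0.35, −0.25 to 0.76 and −0.07 to 0.52 for Nr4a3. No companion call changed sign, and all but Prkag3 in Geriatric versus Old were lost under at least 1 alternative, most often within slide 2. The cause of these changes was not tested.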
